A study of Bos taurus with 40 samples.

Results

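The genes described here are 48 cell cycle and proliferation genes, chosen by name from a list of replication factors, cyclins, mitotic kinases and spindle proteins. Of these, 43 have a row in the count tables and at least 1 read, out of 13148 genes with a read. MKI67, TOP2A, CENPE, MCM2 and FOXM1 are not analysed here. RNA was sequenced from liver, abdominal fat, longissimus dorsi muscle, a muscle of the back, and pituitary gland of 5 cows and 5 bulls, which gave 10 libraries per tissue and 40 in all. All animals were Korean cattle slaughtered when older than 22 months, the labels name no treatment, and each library came from the tissue of 1 animal. The study asked which genes are sexually dimorphic in each tissue (M1, a test within a tissue) and over the tissues together (M2, with sex and tissue as terms).

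A dividing cell copies its DNA in S phase and separates the copies in mitosis. The MCM proteins form the helicase that opens DNA for copying, PCNA is the clamp that holds the polymerase on it, and TYMS and RRM2 supply the nucleotides. Cyclin E and the transcription factor E2F1 act at entry into S phase, cyclins A and B with CDK1 drive mitosis, and kinesins and microtubule-bundling proteins build the spindle and complete the division of the cell. The liver, fat, muscle and pituitary gland of grown animals consist mostly of cells that are not dividing, and transcripts of this machinery are usually scarce in them. For description, 13 members are called early (8 of helicase loading and the replication fork, 2 of nucleotide supply, 3 of entry into S phase) and 30 late (10 kinases, cyclins and phosphatases of entry into mitosis, 7 of the spindle checkpoint, kinetochore and chromosomal passenger complex, 10 of the spindle and cytokinesis, 3 of the ubiquitin pathway in mitosis).

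Between 5173092 and 19165864 reads per library lay on genes (median 10005607). The 43 members took 3575 to 7842 of these reads in fat, 2790 to 6249 in pituitary gland, 1495 to 4352 in liver and 986 to 4343 in muscle, which is 0.0136 to 0.062% of the reads of a library. Members with at least 3 reads in every library numbered 33 in fat, 31 in pituitary gland, 28 in liver and 20 in muscle, so many late members rest on a few reads per library. MCM7 and PCNA alone held 24.7% of the members' reads in liver and 39.8% in fat. Levels below are CPM, the counts scaled to a common library size, after scaling by TMM factors, which balance the libraries on the bulk of their genes. They carry no correction for gene length and are compared between tissues for 1 gene at a time. The defining markers of each tissue were highest where the labels place them. A pair of libraries stood apart. The liver library labelled bull 3 held 8694 reads of the female-specific XIST and 0 reads of the Y-linked USP9Y, DDX3Y and ZFY. Of all pairs of libraries within a tissue, it lay closest to the liver library of cow 4 (chi-square per degree of freedom 15.0, where sampling noise alone gives about 1). The fat library of bull 5 held 18 XIST reads, and 23, 2 and 3 reads of those Y-linked genes. Without either of them, no count of called members moved by over 1.5 times and no named gene's call changed.

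Summed over the 43 members, the level was 383 ± 44.7 CPM (SD, n = 10) in fat and 317 ± 67.6 in liver, and it was lower in muscle, at 293 ± 32.6, and in pituitary gland, at 256 ± 23.1. The early and late members did not follow the same order. The early sum was highest in fat, at 280 ± 41.9 CPM, against 202 ± 25.9 in muscle, 189 ± 20.1 in pituitary gland and 169 ± 39.8 in liver. The late sum was highest in liver, at 148 ± 47.3 CPM, and lowest in pituitary gland, at 66.4 ± 11.8, with 104 ± 23.7 in fat and 91.3 ± 20.9 in muscle. These sums follow the members with the most reads. Without KIF23 and TPX2, removed after their values were seen, the late sum was 74.4 ± 19.0 CPM in fat, 72.2 ± 14.5 in muscle, 64.6 ± 31.3 in liver and 59.5 ± 10.9 in pituitary gland, so the lead of liver rested on these 2 members. Gene by gene, 18 of 30 late members had a higher fitted level in fat than in liver, with a median log2 fold change of 0.12 where that of all genes was 0.13. The order of the sums also depends on the scaling. With library sizes alone, without TMM factors, the mean sums were 491 CPM in fat, 357 in pituitary gland, 250.032 in liver and 219 in muscle. In bulk tissue, fewer cells of a type and less RNA per cell cannot be told apart.

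**Figure D1:**
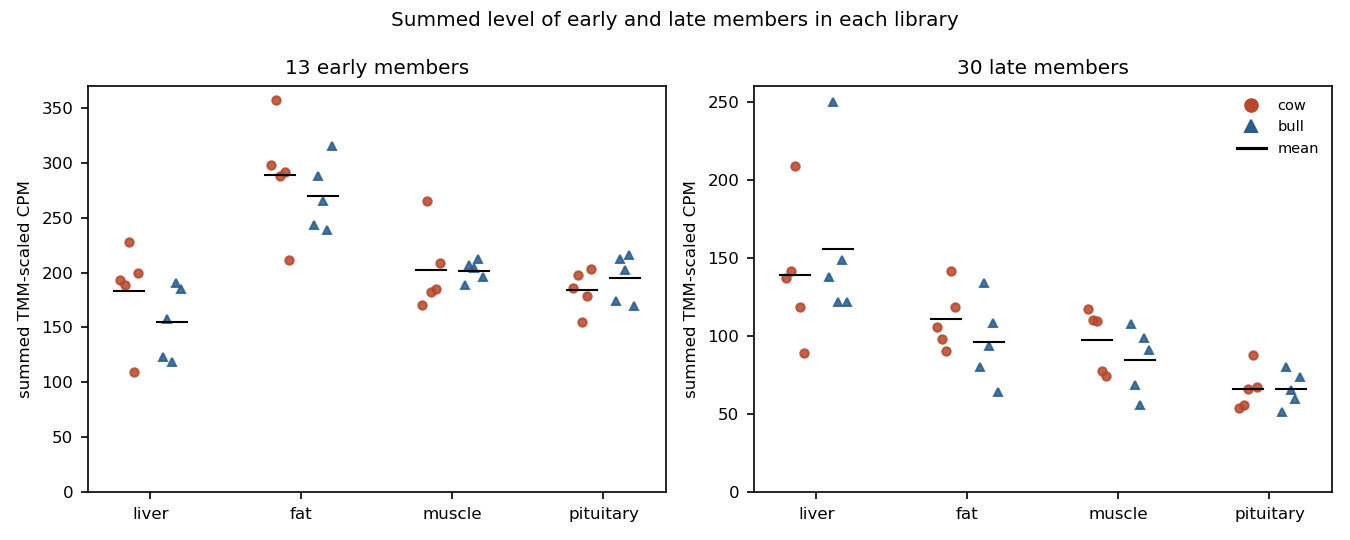
Summed TMM-scaled CPM of the 13 early members (left) and the 30 late members (right) in each of the 40 libraries, by tissue, with circles for cows, triangles for bulls and black lines for the mean of 5 libraries. Fat libraries hold the highest early sums, and the liver library of bull 2 lies above the rest of the late sums at 251 CPM.

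The 6 pairs of tissues were compared with edgeR's quasi-likelihood F test over all 40 libraries, with sex and tissue as terms. A gene was called when its FDR adjusted p was below 0.05 and its fold change was at least 2. Against liver, pituitary gland had 1 member higher (27.1% of all genes were called higher) and 6 lower (21.1%). Against fat, pituitary gland had 2 members higher (24.3% of all genes) and 12 lower (22.7%). Against muscle, it had 4 higher (25.2%) and 4 lower (22.6%). Fat had 9 members higher than liver (26.2%) and 3 lower (21.2%), and 9 higher than muscle (23.8%) and 2 lower (19.1%). Liver had 4 members higher than muscle (21.6%) and 3 lower (24.8%). Read against these shares of all genes, the members' counts were near the background or under it, with 12 of 43 at most, and the shares were not tested against each other. In none of the 6 comparisons were 17 members called, among them PCNA, MCM4, CDC6, CCNE2, PLK1, AURKA, BUB1B, HMMR and KIF11. The median log2 fold change of the members was -0.66 for pituitary gland against fat, where the median of all genes was 0.02, and 0.61 for fat against muscle, where it was 0.13. Without the liver library of bull 2, pituitary gland had 3 members higher and 4 lower than liver. Removing 1 animal from all tissues also moved some counts by over 1.5 times. Shares of all genes are not given for the fits with a library or an animal left out. Fat had 5 members higher than muscle without bull 2 and 14 without bull 5. Pituitary gland had 11 lower than liver without cow 4, 3 higher than liver without bull 2 and 2 without bull 4, bull 5, cow 1 or cow 3, 1 higher than fat without bull 5, and 2 higher than muscle without bull 2 or cow 5.

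The split of calls depended on the scaling. With library sizes alone, pituitary gland had 16 members higher (46.0% of all genes were then called higher) and 3 lower (13.2%) than liver, and 19 higher (44.8%) and 3 lower (11.4%) than muscle. Fat then had 21 higher (42.0%) and 1 lower (13.0%) than liver, and 25 higher (43.1%) and 0 lower (9.94%) than muscle. All genes shifted with this scaling, as their median log2 fold change went from 0.12 to 0.92 for pituitary gland against liver. With RLE factors, another scaling on the bulk of the genes, and with DESeq2, liver had 6 members higher and 2 lower than muscle. With the animal as a replicate block in place of sex, 3 members in place of 1 were called higher in pituitary gland than in liver. Shares of all genes are not given for the RLE, DESeq2 and block fits.

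**Figure D2:**
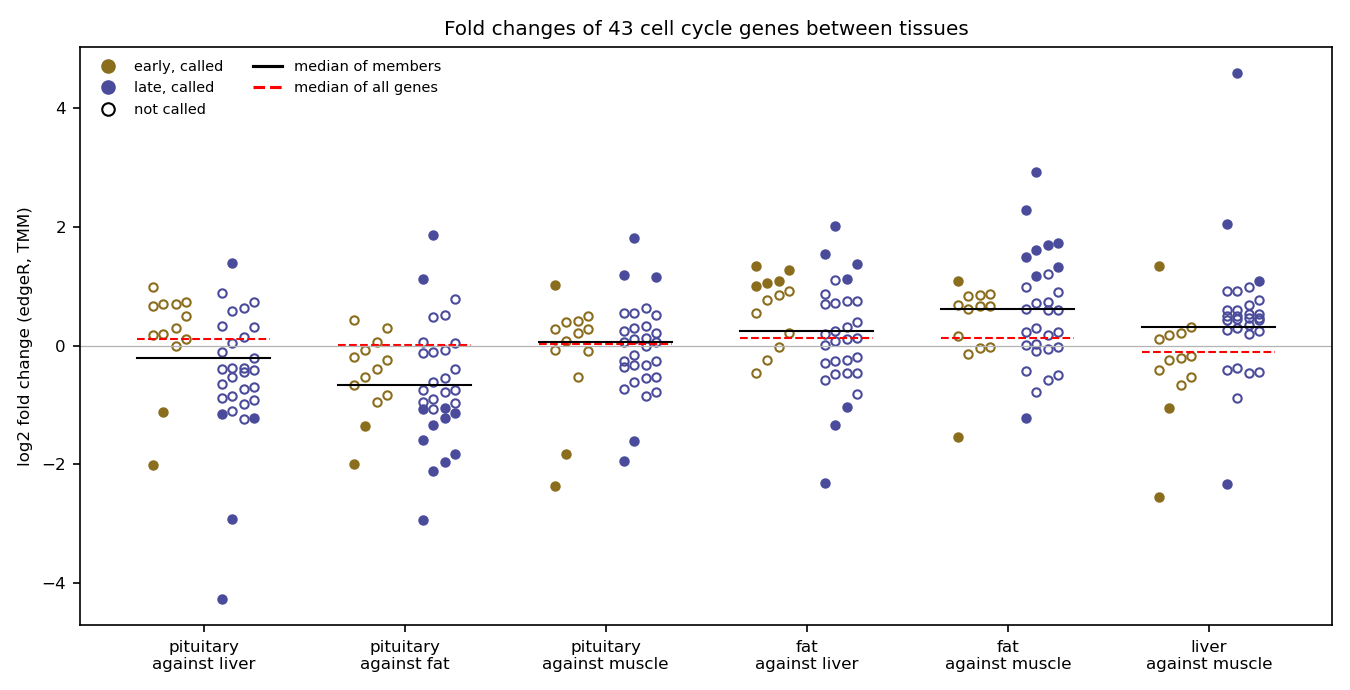
Log2 fold changes of the 43 members in the 6 tissue comparisons, from edgeR with TMM factors, early members left and late members right within each comparison, filled where called. Black lines mark the median of the members and red dashed lines the median of all genes, and the farthest points are KIF23, at 4.59 for liver against muscle and -4.26 for pituitary gland against liver.

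Among the helicase and fork genes, fat was called above liver for 4 of 8 members (26.2% of all genes). None of the 8 was called lower there (21.2% of all genes). MCM7, a subunit of the MCM helicase, had a lowest, median and highest level of 77.1, 119 and 163 CPM in fat, 27.5, 44.1 and 71.2 in liver, 45.5, 61.4 and 91.5 in muscle, and 32.1, 46.7 and 56.2 in pituitary gland. The 10 fat libraries lay above all liver and all pituitary libraries and overlapped with muscle. The log2 fold change of MCM7 was 1.35 ± 0.17 (SE, from the fold change and the test statistic) for fat against liver, with an adjusted p of 3.46e-09, and -1.36 ± 0.17 for pituitary gland against fat, with an adjusted p of 3.01e-09. MCM5, another subunit, was higher in fat than in liver by 1.27 ± 0.24 (adjusted p = 1.22e-05), with 11.4 to 24.4 CPM in fat and 3.09 to 11.8 in liver. MCM3, at 1.06 ± 0.25, and CDC45, which activates the helicase, at 1.09 ± 0.25, were also called in this comparison, but fell short of the 2-fold minimum with RLE factors, at 0.96 and 1.0. MCM6 was lower in liver than in muscle by 1.06 ± 0.21 on the log2 scale, and missed the minimum at -0.93 with RLE factors and -0.95 with library sizes alone.

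PCNA varied little between tissues. Its lowest, median and highest levels were 31.5, 43.5 and 59.7 CPM in pituitary gland, 21.4, 38.0 and 44.8 in fat, 22.8, 36.6 and 48.9 in muscle, and 20.1, 30.4 and 51.0 in liver. The groups overlapped in each pair of tissues, and none of the 6 comparisons was called. The widest was pituitary gland against liver, with a log2 fold change of 0.51 ± 0.16 (edgeR adjusted p = 0.00577), under the 2-fold minimum.

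Both nucleotide supply genes were lower in pituitary gland than in liver. TYMS, thymidylate synthase, had 21.5, 27.1 and 98.6 CPM (lowest, median, highest) in liver against 10.2, 16.1 and 20.3 in pituitary gland, with no overlap. The log2 fold change was -1.12 ± 0.22 (adjusted p = 1.71e-05), and -0.29 with library sizes alone, where it was not called (adjusted p = 0.276). TYMS was also higher in liver than in muscle, by 1.34 ± 0.22 (adjusted p = 9.00e-07). The highest liver value was that of cow 3, and the next was 36.4 CPM. RRM2, a subunit of ribonucleotide reductase, was lower in pituitary gland than in every other tissue, at -2.02 ± 0.40 against liver, -2.0 ± 0.39 against fat and -1.83 ± 0.41 against muscle. Its pituitary levels ran from 0.06 to 1.11 CPM, and the levels of the other tissues from 0.52 to 4.98 CPM.

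The genes of entry into S phase differed among themselves. CCNE1, which encodes cyclin E1, was highest in muscle, with a lowest, median and highest level of 9.20, 11.6 and 18.4 CPM. It reached 2.52, 3.55 and 7.15 CPM in fat, 1.37, 2.43 and 3.07 in pituitary gland, and 0.77, 2.22 and 3.20 in liver. Every muscle library lay above every library of the other tissues. The log2 fold change was -2.55 ± 0.23 for liver against muscle (adjusted p = 4.12e-13), -2.37 ± 0.22 for pituitary gland against muscle (adjusted p = 1.96e-12) and -1.54 ± 0.22 for fat against muscle (adjusted p = 7.11e-08). With library sizes alone, the last of these was -0.73 and under the 2-fold minimum. CCNE2, which encodes cyclin E2, was called in none of the 6 comparisons, with 10.2 ± 2.35 CPM in pituitary gland, 8.91 ± 4.63 in liver, 7.74 ± 2.58 in muscle and 7.59 ± 2.29 in fat. E2F1 was lowest in muscle, with a median of 0.95 CPM against 2.96 in pituitary gland and 2.88 in fat, and its ranges overlapped between all tissues. It was called higher in pituitary gland than in muscle (1.02 ± 0.31, adjusted p = 0.00449) and in fat than in muscle (1.09 ± 0.31, adjusted p = 0.00265). The former fell under the 2-fold minimum in 6 of 10 fits with 1 animal removed, with the lowest value at 0.94.

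**Figure D3:**
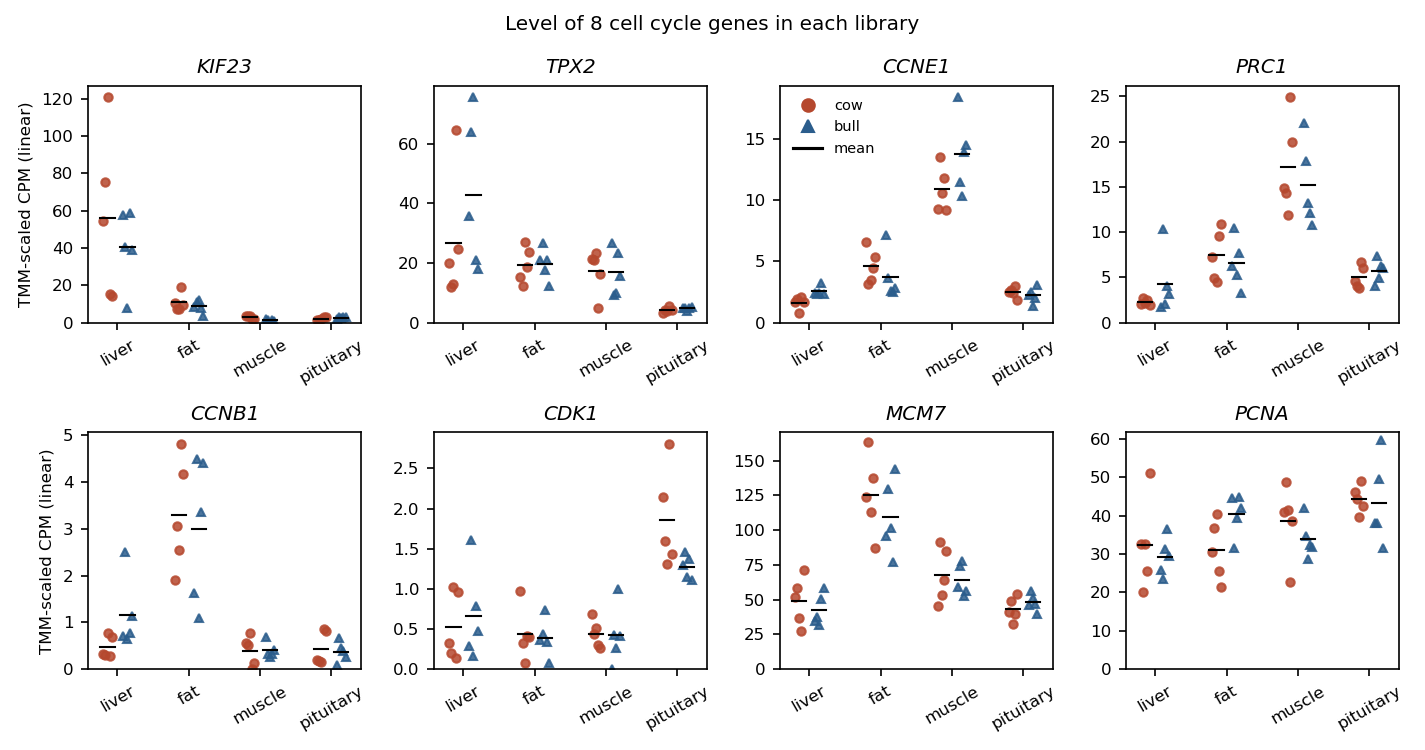
TMM-scaled CPM, on linear axes from 0, of 8 members in each of the 40 libraries, with circles for cows, triangles for bulls and black lines for the mean of 5 libraries. KIF23 is highest in most liver libraries, CCNE1 and PRC1 in muscle, CCNB1 and MCM7 in fat and CDK1 in pituitary gland, while PCNA overlaps between all tissues.

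The kinase of entry into mitosis and cyclin A2 had their highest mean levels in pituitary gland, and the B cyclins in fat. CDK1, the mitotic kinase, was highest in pituitary gland, with a lowest, median and highest level of 1.11, 1.40 and 2.81 CPM. It had 0.14, 0.40 and 1.61 CPM in liver, 0.08, 0.38 and 0.98 in fat, and 0, 0.42 and 0.99 in muscle. All pituitary libraries lay above all fat and muscle libraries, and the liver library of bull 2 was the only liver library within the pituitary range. In log2 terms, pituitary gland was higher by 1.87 ± 0.39 against fat (adjusted p = 4.85e-05), 1.82 ± 0.41 against muscle (adjusted p = 0.000153) and 1.39 ± 0.39 against liver (adjusted p = 0.00198). CDK1 had fewer than 3 reads in 4 liver, 2 fat and 4 muscle libraries. CCNA2, cyclin A2, was also called higher in pituitary gland than in fat (1.12 ± 0.38) and muscle (1.15 ± 0.39), with a median of 3.05 CPM against 1.31 and 0.89. Without bull 5, the former was 0.95 and no longer reached 2-fold.

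CCNB1, which encodes cyclin B1, the partner of CDK1, was highest in fat instead. Its lowest, median and highest levels were 1.10, 3.21 and 4.82 CPM in fat, 0.28, 0.70 and 2.51 in liver, 0, 0.37 and 0.76 in muscle, and 0.08, 0.33 and 0.86 in pituitary gland. All fat libraries lay above all muscle and pituitary libraries. Fold changes on the log2 scale were 2.93 ± 0.43 for fat against muscle (adjusted p = 1.26e-07), -2.93 ± 0.40 for pituitary gland against fat (adjusted p = 2.51e-08) and 2.01 ± 0.40 for fat against liver (adjusted p = 2.47e-05). CCNB2, cyclin B2, was called higher in fat than in muscle (1.33 ± 0.55) and lower in pituitary gland than in fat (-1.60 ± 0.52). MELK, a kinase of dividing cells, was higher in fat than in liver (1.37 ± 0.47) and muscle (1.62 ± 0.49). CDC25C, the phosphatase that activates CDK1, was higher in liver than in muscle (2.05 ± 0.45) and lower in fat than in liver (-1.33 ± 0.38), but 9 of the 10 muscle libraries held fewer than 3 of its reads. With library sizes alone, the difference between fat and liver was -0.62 and not called (adjusted p = 0.172). In the RefSeq annotation CDC25C overlaps SLBP2, which has no row here, and the part of that overlap was not tested. PLK1, AURKA, CDKN3 and NEK2 were called in no pair of tissues.

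The checkpoint, kinetochore and passenger genes were called most often between pituitary gland and fat. There 4 of 7 were lower in pituitary gland, as were 22.7% of all genes, and the shares were not tested against each other. These were AURKB, the kinase of the chromosomal passenger complex, at -1.21 ± 0.30 (adjusted p = 0.000429), its partners CDCA8 at -1.83 ± 0.50 and BIRC5 at -1.34 ± 0.47, and BUB1, a checkpoint kinase, at -1.13 ± 0.37. With the animal as a replicate block, BUB1 was at -0.97, under the 2-fold minimum. AURKB had 1.07, 1.71 and 3.83 CPM (lowest, median, highest) in fat, against 0.28, 0.56 and 1.33 in liver and 0.26, 0.42 and 1.04 in muscle. The fat and muscle libraries did not overlap, and the log2 fold change was 1.73 ± 0.32 (adjusted p = 9.45e-06). CENPF, a kinetochore protein, was called lower in fat (-1.03 ± 0.43) and in pituitary gland (-1.14 ± 0.44) than in liver. The former was -0.93 and not called with the animal as a replicate block. With library sizes alone neither was called, at -0.32 (adjusted p = 0.549) and -0.37 (adjusted p = 0.478). Its liver levels were 2.25 to 8.20 CPM in the other 9 libraries and 26.8 CPM in bull 2. The medians of CENPF were 4.03 CPM in liver, 2.82 in fat and 2.24 in pituitary gland. Its calls without the liver library of bull 2 are not given here. BUB1B and TTK, both checkpoint kinases, were with NEK2 the members with the smallest range of mean levels between tissues. BUB1B had means of 1.08, 0.70, 0.69 and 0.73 CPM in liver, fat, muscle and pituitary gland.

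The widest tissue differences lay among the genes of the spindle and cytokinesis. KIF23, the kinesin of the central spindle, had a lowest, median and highest level of 8.06, 47.5 and 121 CPM in liver, 3.63, 9.01 and 19.3 in fat, 1.53, 2.66 and 3.21 in pituitary gland, and 0, 1.81 and 3.63 in muscle. The liver libraries lay above all muscle and pituitary libraries and spread over a wide range, with cow 4, cow 5 and the library labelled bull 3 below the highest fat library. On the log2 scale, KIF23 differed by 4.59 ± 0.39 for liver against muscle (adjusted p = 8.82e-14), -4.26 ± 0.38 for pituitary gland against liver (adjusted p = 2.72e-13) and -2.30 ± 0.35 for fat against liver (adjusted p = 1.86e-07). Fat was above muscle by 2.29 ± 0.37 (adjusted p = 9.25e-07). Between liver and muscle, PRC1 was called in the other direction and 8 of the 10 spindle genes were not called, with a median log2 fold change of 0.48 over the 10. Against liver, pituitary gland was also lower for TPX2 and for ASPM, a spindle pole protein, at -1.21 ± 0.45, which was -0.42 and not called with library sizes alone. ASPM in liver was 4.83 CPM in bull 2 and 0.82 to 3.20 in the others. In the RefSeq annotation, which is of a later assembly than the one the reads were aligned to, KIF23 overlaps PAQR5, a gene without a row of its own here. Without strand, reads of such a pair cannot be told apart, and the part of PAQR5 in these values was not tested.

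TPX2, which activates AURKA on the spindle, was lowest in pituitary gland, with 3.34, 4.50 and 5.69 CPM. It had 11.9, 22.9 and 75.7 CPM in liver, 12.2, 19.8 and 27.1 in fat, and 4.73, 18.6 and 26.7 in muscle. The pituitary libraries lay below all liver and fat libraries, and 1 muscle library, that of cow 4, fell within their range. The log2 fold change was -2.92 ± 0.30 against liver (adjusted p = 2.20e-11), -2.12 ± 0.30 against fat (adjusted p = 3.99e-08) and -1.94 ± 0.30 against muscle (adjusted p = 2.34e-07). In liver, TPX2 was 64.1 to 75.7 CPM in cow 4, bull 2 and the library labelled bull 3, and 11.9 to 35.6 in the other 7. PRC1, which bundles microtubules between the separating chromosomes, was highest in muscle, with 10.8, 14.6 and 25.0 CPM against 1.72, 2.35 and 10.4 in liver. In log2 terms the differences of PRC1 were -2.34 ± 0.27 for liver against muscle (adjusted p = 6.11e-10), -1.60 ± 0.26 for pituitary gland against muscle and -1.21 ± 0.26 for fat against muscle. The last 2 were -0.64 and -0.35 with library sizes alone, where neither was called. Of the 3 genes of the ubiquitin pathway, CDC20 (1.70 ± 0.55) and CDCA3 (1.18 ± 0.44) were called higher in fat than in muscle, and UBE2C in no comparison. CDCA3 was also called higher in liver than in muscle and lower in pituitary gland than in fat. The latter call was lost with the animal as a replicate block.

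A further 31 cell cycle genes outside the 43, among them D-type cyclins, E2F and RB family members and inhibitors of cyclin-dependent kinases, were counted in the same way, against the same shares of all genes. Against liver, fat had 13 of these higher (26.2% of all genes) and 3 lower (21.2%), and pituitary gland had 10 higher and 4 lower. Liver had 1 higher and 10 lower than muscle. Pituitary gland had 4 higher and 7 lower than fat and 5 higher and 9 lower than muscle, and fat had 8 higher and 6 lower than muscle. The 3 genes with the largest fold changes, chosen by these values, were kinase inhibitors. CDKN1C was 113 ± 93.7 CPM in fat and 1.83 ± 1.20 in liver (log2 fold change 5.85 ± 0.41), and CDKN2C was 33.8 ± 16.4 in fat and 0.89 ± 0.48 in liver (5.20 ± 0.30). CDKN2B was 59.0 ± 25.7 CPM in fat and 1.65 ± 0.98 in muscle (5.13 ± 0.38). CCND1, cyclin D1, was higher in pituitary gland than in fat, at 29.4 ± 4.16 against 4.79 ± 3.01 CPM (2.62 ± 0.28).

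Late members tended to peak in the same library. In liver, bull 2 was the highest of the 10 libraries for 24 of the 30 late members, where it was the highest for 11.3% of all genes, and for 1 of the 13 early members. Its late sum was 251 CPM, against 209 CPM in cow 3, the next, and its median ratio over the late members to the median of the other 9 libraries was 3.91. BIRC5 was 4.83 CPM in bull 2 and 0.94 in the next library, KIF20A, a kinesin of cytokinesis, 10.6 against 3.97, and PRC1 10.4 against 4.06. KIF23, TPX2, PLK1, AURKB, CCNB2 and CDCA3 were the 6 late members that were highest elsewhere. This library had the fewest reads on genes of the 10 liver libraries (6898811). It held the highest summed liver levels of the muscle fibre markers (124 CPM, 3.23 to 34.2 in the others), the pituitary markers (384 CPM, 14.7 to 232 in the others), the adipocyte markers (19.5 CPM, 5.33 to 9.35) and the fibroblast markers (589 CPM, 355 to 553). Its PTPRC level, a marker of all leukocytes, was 94.9 CPM within a range of 61.4 to 223. The part of these in the result was not tested.

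In pituitary gland, cow 4 was the highest library for 16 of 30 late members (5.78% of all genes) and for 0 of 13 early members. Its late sum was 88.1 CPM, and the other 9 libraries had 51.7 to 80.4 CPM. In some late roles the cows split. The ubiquitin pathway sum was 0.32, 0.47, 0.65, 6.78 and 4.92 CPM in cows 1 to 5 and 2.02 to 3.82 in bulls. The checkpoint, kinetochore and passenger sum was 3.34, 3.06, 3.26, 12.3 and 7.66 CPM, and 4.69 to 11.5 in bulls. The other late roles did not split so. Chi-square per degree of freedom was 23.2 to 51.9 among cows 1 to 3, and 82.4 to 159 between them and cows 4 and 5. The cause was not tested. In the library of cow 4 the summed macrophage markers were 135 CPM, below 202 in cow 3 and 239 in bull 5. PTPRC was 6.55 CPM, within a range of 4.41 to 20.3. The summed T cell markers were the lowest in pituitary gland, at 0.468 CPM against 0.705 to 5.68 in the others. In muscle, cow 2 was the highest for 12 of 30 late members (12.3% of all genes) and for 6 of 13 early members. Cow 2 held the highest summed macrophage markers in muscle (353 CPM, 56.1 to 270.1 in the others) and a PTPRC level of 43.1 CPM, below the 53.4 of cow 3. In fat, no library led as clearly, with 9 late members highest in bull 2 (4.57% of all genes) and 8 in cow 2 (9.65%). Those libraries had the 2 highest macrophage sums in fat, at 1290 CPM in bull 2 and 1015 in cow 2, against 364 to 790 in the others, with PTPRC highest in bull 2 (68.9 CPM) and at 21.3 in cow 2. The part of these cells in the values of pituitary gland, muscle and fat was not tested. Within a tissue, with the mean of each sex removed, the median Pearson's r between pairs of late members over the 10 libraries was 0.608 in liver, 0.506 in pituitary gland, 0.403 in fat and 0.372 in muscle. Between pairs of early members it was 0.275, 0.0821, 0.0509 and 0.12 in the same order. The pairs share libraries and depth. The liver values include bull 2, the highest library for 24 of 30 late members, and the pituitary values include cow 4, the highest for 16. No r without these libraries is given, so a single library may carry much of these values, which are a description.

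**Figure D4:**
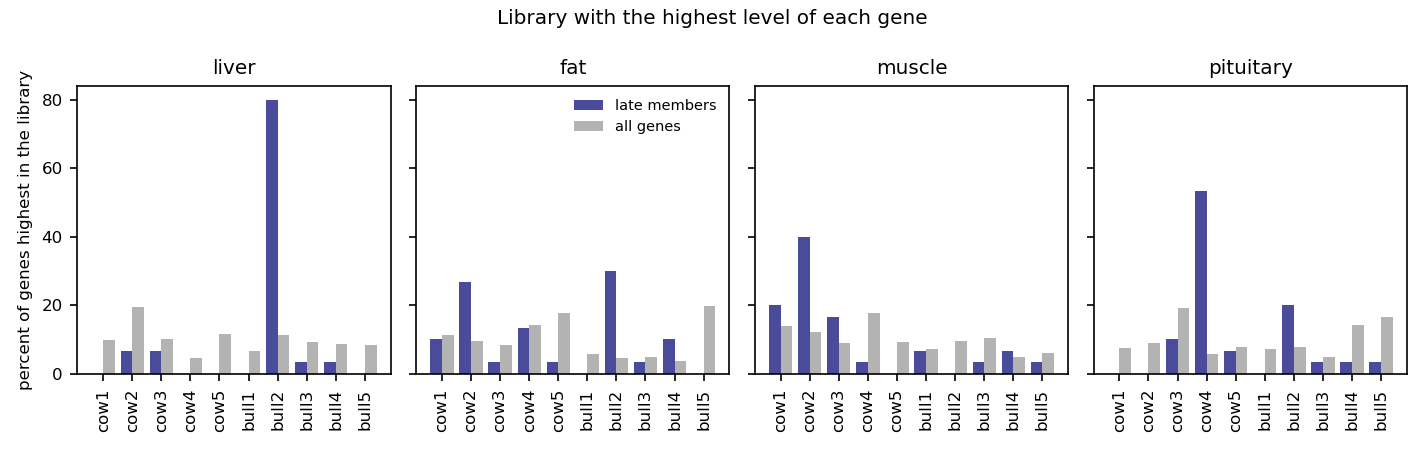
Percentage of the 30 late members (blue) and of all genes with a read in the tissue (grey) that reach their highest TMM-scaled CPM in a given library, for the 10 libraries of each tissue. The liver library of bull 2 holds 24 of the 30 late members and the pituitary library of cow 4 holds 16, against 11.3% and 5.78% of all genes.

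No member was called sexually dimorphic in the main fits made here, whose calls over all genes differ in number from the paper's. With M1, edgeR's likelihood ratio test gave 0 members at an adjusted p below 0.05 in pituitary gland (0.745% of all genes were called), 0 in muscle (0.517%), 0 in liver (0.175%) and 0 in fat (0.114%). M2 called 0 members (1.69% of all genes), and the interaction of sex and tissue called 0 (0.335%). At an unadjusted p below 0.05 there were 6 members in liver (7.45% of all genes), 2 in muscle (11.0%), 1 in fat (6.88%), 0 in pituitary gland (9.27%), 3 with M2 (16.7%) and 2 for the interaction (8.58%). The quasi-likelihood test, DESeq2, RLE factors, library sizes alone and the stricter filter on low counts also gave 0 calls in every model. With the animal as a replicate block, M2 and the interaction gave 0. Without bull 5, M2 called PLK1 (log2 fold change -0.48, adjusted p = 0.0426), a gene chosen for mention after this value was seen.

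The members nearest to the threshold had wide errors. In liver this was CCNB1, with 0.32, 0.31, 0.77, 0.28 and 0.68 CPM in cows 1 to 5 and 0.72, 2.51, 0.64, 0.78 and 1.13 in bulls 1 to 5. Bull 2 was high and the other bulls overlapped with the cows or lay close above them. The log2 fold change was 1.28 ± 0.57, with an adjusted p of 0.542. In fat it was PLK1, the polo-like kinase, where cows 4 and 5 had 40.7 and 34.1 CPM and the other 8 animals 12.2 to 18.5 (-0.93 ± 0.40, adjusted p = 0.621). In the annotation, PLK1 overlaps ERN2, which has no row here, and the part of that overlap was not tested. In muscle it was MELK, with 1.93, 0.86, 0.38, 0.30 and 0.39 CPM in the cows and 0, 0.10, 0, 0.50 and 0.14 in the bulls. Bull 4 lay within the range of the cows and the other bulls below it, on 0 to 14 reads per library (-2.23 ± 0.84, adjusted p = 0.240). MELK also had the smallest p for the interaction (adjusted p = 0.309). In pituitary gland it was AURKB (0.79, adjusted p = 0.538), and over the tissues E2F1 (-0.48 ± 0.21, adjusted p = 0.214). CCNE1 in liver was the only member whose sexes did not overlap in any tissue (0.548% of all genes did not overlap in liver, 1.65% in muscle, 1.34% in pituitary gland and 1.29% in fat). It had 1.70, 1.94, 0.77, 2.11 and 1.64 CPM in the cows and 2.43, 2.33, 2.42, 3.20 and 2.36 in the bulls, with a log2 fold change of 0.67 ± 0.37 and an adjusted p of 0.721. The 2.42 CPM is that of the library labelled bull 3, which goes against its label. It lay above the values of bulls 2 and 5, so the sexes would overlap if it came from a cow, and they did not overlap without it.

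The late members leaned in opposite directions in liver and muscle, without any call. In liver, 26 of 30 had a higher fitted level in bulls, with a median log2 fold change of 0.76, where that of the early members was -0.19 and that of all genes was at 0. Without bull 2, 20 of 30 were higher in bulls and the median was 0.22. Without the library labelled bull 3, these were 27 and 0.87. In muscle, 1 of 30 had a higher fitted level in bulls, with a median of -0.39, against -0.08 for the early members and -0.04 for all genes. Without cow 2 this was 9 of 30, with a median of -0.21. The lean was not shared by all cows. The late sum in muscle was 117.5, 110.3 and 109.8 CPM in cows 1 to 3. It was 77.7 and 74.5 CPM in cows 4 and 5, within the 56.3 to 108 CPM of the bulls. In muscle, the summed macrophage markers were 264 ± 55.1 CPM in cows and 148 ± 64.1 in bulls (SD, n = 5), and PTPRC was 29.8 ± 18.0 and 15.9 ± 8.77 CPM. The part of these cells in the muscle values was not tested. In fat 11 and in pituitary gland 16 of 30 late members had a higher fitted level in bulls, with medians of -0.13 and 0.16. The late members share libraries and vary together, so these counts are descriptions of 10 animals.

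**Figure D5:**
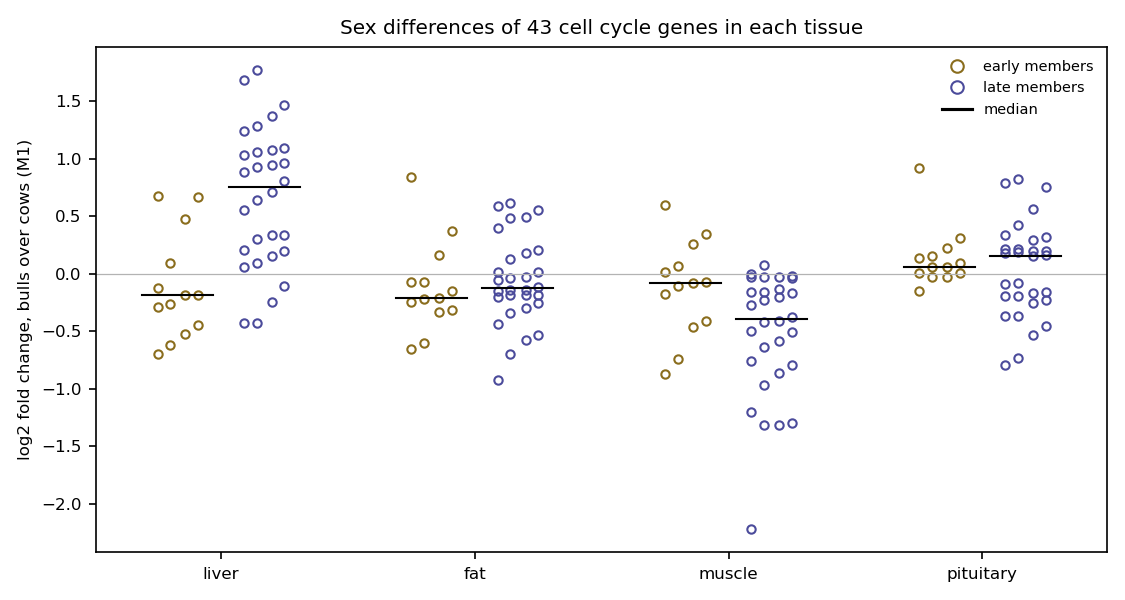
Log2 fold changes of bulls over cows (M1, edgeR with TMM factors) for the 13 early and 30 late members in each tissue, with black lines for the median of each group, where none is called. In liver 26 of 30 late members lie above 0 and in muscle 1 of 30.

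Of 10916 other genes with a mean of at least 1 CPM, those most like the members followed the summed level of the late members across all 40 libraries. They were ranked by Pearson's r of log2(CPM + 1) with the log2 of that sum, after the mean of each sex and tissue was removed. GEN1, a nuclease that resolves DNA junctions, came first with an r of 0.722. CKAP2, a spindle protein, had 0.706, KIF15, a spindle kinesin, 0.686, C9HXorf21 0.667, and ERCC6L, a helicase of mitotic chromosomes, 0.661. Within tissues, the r of GEN1 was 0.909 in muscle, 0.826 in liver, 0.498 in fat and 0.362 in pituitary gland, each over 10 libraries. In pituitary gland, the r was 0.209 for CKAP2, 0.231 for KIF15, 0.288 for C9HXorf21 and 0.596 for ERCC6L. The late sum follows the members with the most reads. In liver it was highest in bull 2, and no r without that library is given.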

How the data were processed

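After trimming in Trimmomatic, the authors ran TopHat2 with Bowtie2 against bosTau7 and assigned reads to gene symbols in HTSeq. For each library, the deposited values are these counts, not normalized. Strandedness and the counting mode are not given in the sources used here. A row without a gene name, with 0.1136 to 2.7647% of the gene reads, was left out. Multiply aligned reads are not counted by default, so near-identical gene copies can be undercounted.

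Groups came from the labels. All 13148 genes with a read were fitted in edgeR 4.0.16 (R 4.3.3) with TMM factors. Tissues were compared with the quasi-likelihood F test on sex and tissue. Sex was tested with the likelihood ratio test in each tissue (M1) and over tissues (M2), with the terms of the study. The calls did not match the paper's in number. M2 called 222 of all genes here, fewer than the paper reports. M1 called 68 in muscle, fewer than the paper, and 98 in pituitary gland, more than the paper. The interaction of sex and tissue was added here with the likelihood ratio test. P-values were adjusted by Benjamini-Hochberg over all genes. Fold changes used a prior count of 0.125. The standard error was the fold change divided by the square root of the test statistic. The tests were tested on simulated data. The members, roles and gene lists were chosen with earlier results of these data known. Genes named with values are CDK1, CCNB1, PCNA and E2F1 (MKI67, TOP2A, MCM2 and FOXM1 of this group have no row here), the 2 with the smallest adjusted p per direction and tissue comparison, the smallest p of each sex model, and the 3 widest and 3 narrowest tissue ranges. Other members were named to complete the account of a role or library.

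The labels give the same animal in 4 tissues by its ear tag, so libraries are paired by animal across tissues. Deviations from the group means, over 10946 genes, had a median r of 0.208 between libraries of 1 animal (-0.450 to 0.560, 60 pairs) and -0.064 between animals of the same sex. Cows and bulls share numbers without being paired. No 2 libraries agreed within sampling noise. The alternatives were the other test, DESeq2 1.42.0, RLE factors, library sizes alone, edgeR's filterByExpr, the animal as a replicate block (limma 3.58.1 voom for sex), no fold minimum, and leaving out animals or the 2 libraries that stood apart. A fit without the liver library of bull 2 and the late sum without KIF23 and TPX2 were added after seeing the data. Depth was 5173092 to 19165864 reads per library, and 3 reads were taken as the least a library can show. That floor covers counting error only. Overlapping genes were found by their positions in the RefSeq annotation of ARS-UCD2.0, a later assembly than the one the reads were aligned to. Figures were drawn with matplotlib 3.10.9.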

Additional observations from a re-analysis of the deposited data

Results flagged for a closer look

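Within each group of 5 libraries of a sex and tissue, the library at either end was compared with the next by Dixon's gap test for the 19 named genes and the sums of all, early and late members. Of 176 groups tested, 20 had a library far from the others. For normally distributed values, chance gives about 1 in 20 groups. The values here are linear CPM, some on few reads, so that rate may not hold, and the genes are not independent.

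The liver library of bull 2 accounted for 7 of these among the bulls, all at the high end. Its summed level of late members was 251 CPM, against 149 in the next bull, with CCNB1 at 2.51 CPM, CCNA2 at 4.47, PRC1 at 10.4, BUB1B at 3.58, NEK2 at 1.79 and, of the early members, MCM5 at 10.4. CCNE1 was instead highest in bull 4 in liver, at 3.20 CPM.

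In the liver of cows, TPX2 was 64.4 CPM in cow 4 and TYMS was 98.6 CPM in cow 3. In fat, CCNE1 was 7.15 CPM in bull 1 and MELK was 3.10 CPM in bull 2.

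In muscle, the summed level of all members was 376 CPM in cow 2, against 292 in the next cow. PLK1 was high in cow 4, at 17.7 CPM. Among the bulls, CCNA2 was 3.18 CPM in bull 5. MELK was 0.497 CPM in bull 4, on 3 reads against 0 or 1 in the other bulls.

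In pituitary gland, TTK was high in cow 4, at 1.01 CPM, and TYMS was low in cow 3, at 10.2 CPM. Among the bulls, TPX2 was low in the pituitary library of bull 3, at 3.82 CPM, and PLK1 was high in bull 5, at 21.3 CPM.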

How the results depend on the processing

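Depth limits the late members most, since up to 19 of the 43 members had fewer than 3 reads in a muscle library. Scaling moved the tissue counts most. With library sizes alone, the median log2 fold change of all genes moved from 0.12 to 0.92 for pituitary gland against liver, and 16 members were higher and 3 lower. The counts higher were 19 for pituitary gland against muscle, 21 for fat against liver (1 lower) and 25 for fat against muscle (0 lower). The mean summed level was then 491 CPM in fat, 357 in pituitary gland and 219 in muscle. As 43 times the geometric mean over members, it was 158 CPM in fat, 113 in pituitary gland, 130 in liver and 120 in muscle, a different quantity that weights members equally.

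Without the fold minimum, 11 members were higher in pituitary gland than in liver, and 4 higher and 19 lower than in fat. Then 17 were higher in fat than in muscle, and 6 lower in liver than in muscle. Dropping the minimum can only add calls among all genes too. Their shares are not given for this setting, so these counts are no result about the members. With the animal as a replicate block, 3 were higher in pituitary gland than in liver. It lost the calls of BUB1 and CDCA3 for pituitary gland against fat (-0.97 and -0.98) and of CCNE1 and CENPF for fat against liver (0.98 and -0.93), changed no other tissue call to uncalled, and moved no other count by over 1.5 times. M2 and the interaction had 0 calls with it. No paired analysis was possible for M1 because cows and bulls are different animals. Without the liver library of bull 2, 3 members were higher in pituitary gland than in liver.

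Leaving out 1 animal at a time gave, for pituitary gland against liver, 1 to 3 members higher (3 without bull 2, 2 without bull 4, bull 5, cow 1 or cow 3) and 4 to 11 lower (11 without cow 4). Against fat it had 1 to 2 higher (1 without bull 5) and 8 to 15 lower, and against muscle 2 to 4 higher (2 without bull 2 or cow 5). Fat had 5 to 14 members higher than muscle (5 without bull 2, 14 without bull 5). M2 gave 0 to 1 call (PLK1 without bull 5). Where an animal moved a count, the cause was not tested, and the shares of all genes are not given for these fits.

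PCNA with M2 changed sign, at -0.14 with library sizes alone and -0.00272 with filterByExpr, and ran from -0.0524 (without bull 4) to 0.0586 over the fits with 1 animal left out, also below 0 without cow 4. CCNB1 with M2 ran from -0.0191 (without bull 2) to 0.315. None of these was called.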
